A study of Triticum aestivum with 12 samples.

Results

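In developing wheat grains, 89 of 61179 probe sets had higher values in IITR26 than in WL711 at both stages examined, labelled here a fixed genotype difference. The label refers to the direction and to a lower limit at both stages, not to a constant size of the difference. A probe set is a group of short oligonucleotides on the array that reads a transcript. Members were chosen from the measured values themselves: the IITR26 mean had to exceed the WL711 mean by a log2 difference of at least 2 at 14 days after anthesis (DAA) and again at 28 DAA, and at each stage every IITR26 array had to lie above every WL711 array. Control probe sets were not considered, and 3 transcript clusters were left out by name. The differences between genotypes among the members are therefore a description and carry no test. The change between stages within a genotype was not used in the choice and was tested. The interaction, the gap between the differences at the 2 stages, was also tested, but it is built from the differences that the rule used. Its p-values are therefore not free of the choice.

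IITR26, a landrace with high grain mineral concentration, and WL711, a modern cultivar with low grain mineral concentration, were grown in the field. Spikes were tagged at anthesis and harvested at 14 DAA, in grain filling, and at 28 DAA, and each RNA sample was drawn from 3 whole grains, so that endosperm, embryo, aleurone and pericarp were read together. With 3 arrays for each genotype at each stage, 12 Affymetrix wheat arrays were available. The deposited value of a probe set is a log2 signal from which the median of the 12 arrays has been taken away for each probe set, so values compare arrays within a probe set and do not tell how bright it was. For the same reason, the presence of tissue markers could not be checked.

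Bread wheat carries 3 related subgenomes, A, B and D, and many of its genes exist as near-identical copies, called homoeologues, that can differ in expression or sequence between genotypes. A hybridization array reads a transcript only through the oligonucleotides designed on a reference sequence. The grain passes through filling, when the endosperm lays down starch and storage proteins, into maturation, when the embryo and aleurone build up oil bodies and protective proteins.

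A putative function in the annotation of the study was available for 38 members, which were sorted by role into translation and nucleic acids (12 members), trafficking and organelles (6), metabolism and cell wall (6), defence (5), protein turnover (5), and grain reserves and maturation (4). Another 23 members were annotated as hypothetical proteins and 28 had no annotation there, which leaves 51 members without a function. Of the 28, 6 shared a transcript cluster with an annotated member. A platform table paired 3 members with a gene, and these were the ubiquitin carrier protein E2 (LOC543216) and both probe sets of the SKP1-like protein (LOC543111). The 89 members belonged to 78 transcript clusters, of which 11 held 2 members each, so members are not independent of each other. Identifiers ending in _x_at, _s_at or _a_at, which mark probe sets that can read more than a single transcript, made up 21.4% of the members and 20.8% of all probe sets. Identifiers starting with TaAffx made up 20.2% of the members and 48.5% of all probe sets.

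The difference ranged from 2.06 to 9.99 with a median of 3.46 at 14 DAA, and from 2.02 to 7.51 with a median of 3.25 at 28 DAA. It was at least 4 at both stages in 17 members and at least 3 at both stages in 42. In 66 members the difference at one stage lay within 1 of that at the other, and it was larger at 14 DAA in 51 members and at 28 DAA in 38. Without replicate 1 of WL711 at 28 DAA, an array described below, the order of the stages turned, with 37 members larger at 14 DAA and 52 at 28 DAA, and the differences at 28 DAA ranged from 1.86 to 8.83 with a median of 3.49. By limma, 82 members passed an adjusted p of 0.01 together with the log2 difference of 2 at 14 DAA, where 0.595% of all probe sets did so in this direction, and 74 passed at 28 DAA, where 0.566% did. Both stages were passed by 72 members, and by 75 probe sets in all (0.123%). Since the rule used these contrasts, nothing is read from the counts. In 63 members all 6 IITR26 arrays, whatever the stage, lay above all 6 WL711 arrays, a pattern held by 621 probe sets in all (1.02%). The other 26 members did not hold this order. In some of them only that replicate 1 of WL711 broke it, as in the transcription elongation factor described below. The members closest to the limit were Ta.1208.1.S1_at, TaAffx.31681.1.S1_at and Ta.20509.1.S1_x_at, with smaller differences of 2.02, 2.06 and 2.08. Just outside it were TaAffx.78308.1.S1_x_at, Ta.14237.1.S1_at and TaAffx.129395.1.S1_s_at, at 1.98 each. With the direction turned round, the same rule was met by 116 probe sets higher in WL711.

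**Figure D1:**
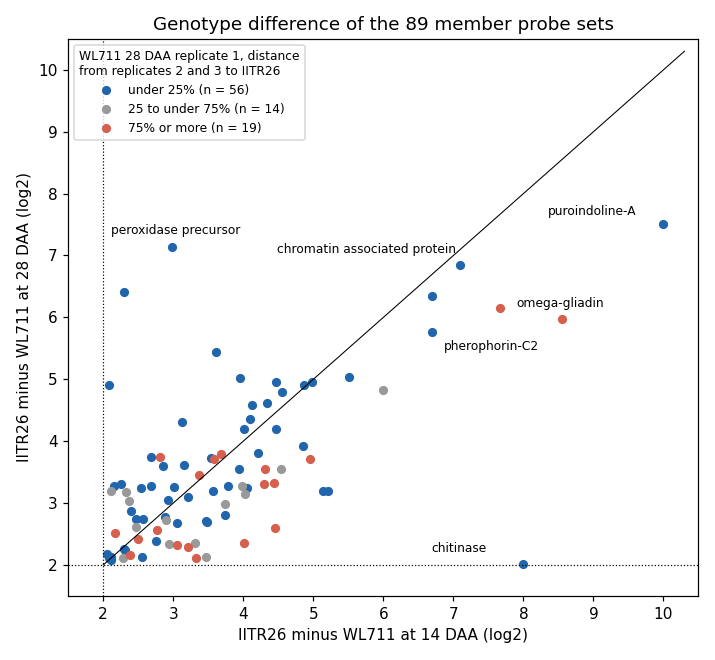
IITR26 minus WL711 (log2) at 14 DAA (x axis) against 28 DAA (y axis) for each of the 89 members; dotted lines mark the limit of 2 and the solid line equal differences. Most members lie near the line, while chitinase and puroindoline-A lie below it, peroxidase lies above it, and the colours give where WL711 28 DAA replicate 1 lay between its replicates and IITR26.

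One WL711 array stood apart in the members. At 28 DAA, WL711 replicate 1 was placed on a scale on which the mean of WL711 replicates 2 and 3 is 0% and the IITR26 mean is 100%. In 49 members it lay between -25 and under 25%, close to its replicates, and in 7 below -25%, on the far side of them from IITR26 and down to -96.2%. In 14 members it lay from 25 to under 75%, and in 19 members at 75% or more, next to IITR26, up to 91.7%. None of the other 11 arrays reached 75% toward the other genotype in any member. In the 19 members, replicate 1 exceeded the mean of replicates 2 and 3 by 2.47 to 8.02. Among the 19 were 12 of the 51 members without a function and 3 of the 12 of translation and nucleic acids. They also held 2 of 6 of metabolism and cell wall, 1 of 5 of protein turnover and 1 of 4 of grain reserves and maturation. None of the 5 of defence or of the 6 of trafficking and organelles was among them. These groups are small, and the rule removed probe sets in which this array overlapped IITR26 at 28 DAA. Nothing is therefore read from the spread over roles. The SD of the WL711 arrays at 28 DAA exceeded 1 in 28 members, against 4 members for IITR26 at 14 DAA, 1 for IITR26 at 28 DAA and 0 for WL711 at 14 DAA. Across all probe sets the correlation between replicates was taken on the deposited values, from which each probe set's median has been taken away. It therefore does not compare with a correlation of the signals before that step. It ranged from 0.286 to 0.672 for WL711 at 28 DAA, from 0.590 to 0.729 for IITR26 at 14 DAA, and from 0.831 to 0.903 for the remaining groups. What set this array apart was not tested.

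**Figure D2:**
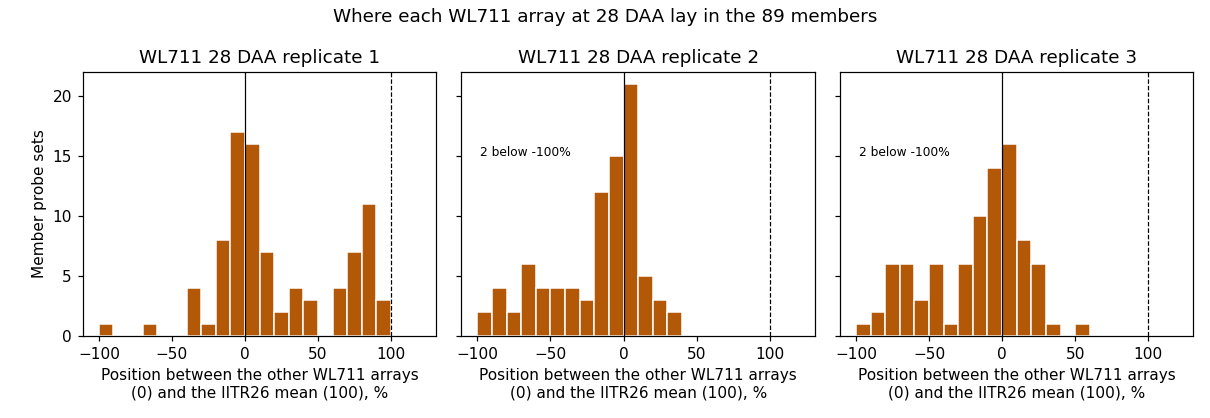
For each WL711 array at 28 DAA, the number of members (y axis) by the array's position between the mean of the other WL711 arrays at 28 DAA (0%) and the IITR26 mean (100%, dashed). Replicate 1 has a separate group of 19 members at 75% or more, which replicates 2 and 3 lack.

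The array shaped both sides of the rule. Without it, 86 of the 89 members still met the rule (not Ta.1208.1.S1_at or the pair of Ta.5703 probe sets, at 1.86 to 1.96), and 57 further probe sets met it, for 143 in all. In 55 of the 57 the left-out array lay at 75% or more, with a median position of 104%. These probe sets failed the rule only with that array included, so a position near IITR26 was favoured by how they were chosen. Among these, named after their values were seen, were a gamma-gliadin (Ta.160.3.S1_x_at), a chitinase (Ta.6952.1.S1_a_at), the plasma membrane aquaporin PIP1 (Ta.2895.1.S1_x_at) and an F-box protein (Ta.7304.1.A1_at). The pattern was not limited to probe sets higher in IITR26. At 28 DAA without replicate 1, 480 probe sets were higher in IITR26 by at least 2 without overlap, and in 18.8% of them replicate 1 lay at 75% or more. The corresponding share was 14.8% of the 660 probe sets lower in IITR26. In the 19 members next to IITR26 the median difference at 28 DAA was 3.30 with the array and 4.54 without it, and in the 56 under 25% it was 3.29 and 3.37. For members described singly below, the difference at 28 DAA is also given without this array where it lay at 25% or more.

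The 5 defence members had a median difference of 4.34 at 14 DAA and of 4.61 at 28 DAA, or 4.50 at 28 DAA without WL711 replicate 1. Puroindoline-A (Ta.23141.1.S1_at) is a lipid-binding protein of the endosperm that softens the grain and has antimicrobial activity. In IITR26 it read 3.33, 3.47 and 3.45 at 14 DAA and 3.45, 3.30 and 3.39 at 28 DAA, and in WL711 -6.84, -6.92 and -5.96 at 14 DAA and -4.36, -4.74 and -3.30 at 28 DAA. The genotypes were far apart in every array, by 9.99 at 14 DAA (1015-fold) and 7.51 at 28 DAA (183-fold). Between stages the change in IITR26 was -0.04 (95% interval -0.75 to 0.67), whereas WL711 rose by 2.44 (95% interval 1.73 to 3.15, adjusted p = 0.000225, limma with Benjamini-Hochberg). The difference between genotypes was thus smaller at 28 DAA by 2.47 (interaction -2.47, adjusted p = 0.00525), a call lost in 8 of the 12 fits that left out an array, with adjusted p from 0.00274 to 0.0169. With quantile normalization repeated over the centred values, which makes the spread of the arrays equal, the rise in WL711 was 0.36.

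Chitinases cleave chitin of fungal cell walls. The member Ta.1208.1.S1_at, annotated as an antimicrobial chitinase family protein, read -0.10, -0.08 and 0.59 in IITR26 at 14 DAA and -7.64, -8.32 and -7.64 in WL711, a difference of 7.998. By 28 DAA the IITR26 arrays stood at 2.18, 1.97 and 1.94 and the WL711 arrays at -0.17, 0.13 and 0.08, which left a difference of 2.02, the lowest at this stage over all 12 arrays. WL711 had risen by 7.88 (95% interval 7.41 to 8.35, adjusted p = 3.79e-09), and the change in IITR26 was 1.90 (95% interval 1.43 to 2.37, adjusted p = 4.38e-05), the latter short of the log2 change of 2. The interaction was -5.98 (adjusted p = 1.76e-06), the largest fall of a genotype difference among the members. This member owed its place to a difference at 28 DAA near the limit, and without WL711 replicate 1 that difference was 1.93, below the limit.

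The peroxidase precursor (Ta.23366.2.S1_at) behaved the opposite way. Plant peroxidases of this kind act in the cell wall and in responses to pathogens. Its IITR26 arrays moved from 1.78, 1.17 and 1.52 at 14 DAA to 4.79, 5.54 and 4.81 at 28 DAA, while the WL711 arrays went from -1.17, -1.53 and -1.75 to -1.91, -2.01 and -2.38. The genotype difference widened from 2.98 to 7.14. IITR26 rose by 3.55 (95% interval 3.04 to 4.06, adjusted p = 8.11e-07), the change in WL711 was -0.62 (adjusted p = 0.0854), and the interaction was 4.17 (adjusted p = 2.43e-05). Another probe set of the same sequence cluster and also a member, Ta.23366.2.S1_x_at, had an interaction of 4.12 (adjusted p = 0.000469). With quantile normalization repeated over the centred values, which makes the spread of the arrays equal, the rise of the peroxidase in IITR26 was 1.67.

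The remaining defence members carry ankyrin repeats, which bind other proteins. The ankyrin repeats protein Ta.12273.1.A1_at read 1.87, 2.15 and 2.14 and 1.96, 3.22 and 2.54 in IITR26 at 14 and 28 DAA, against -2.48, -2.06 and -2.31 and -2.27, -1.98 and -1.87 in WL711. The other, annotated as an ankyrin repeat protein, read 2.17, 2.72 and 2.49 and 1.59, 2.16 and 1.56, against -1.80, -1.91 and -1.56 and -2.17, -1.66 and -2.29. Every IITR26 array of either probe set lay above every WL711 array of both stages, and neither was called for a change between stages.

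**Figure D3:**
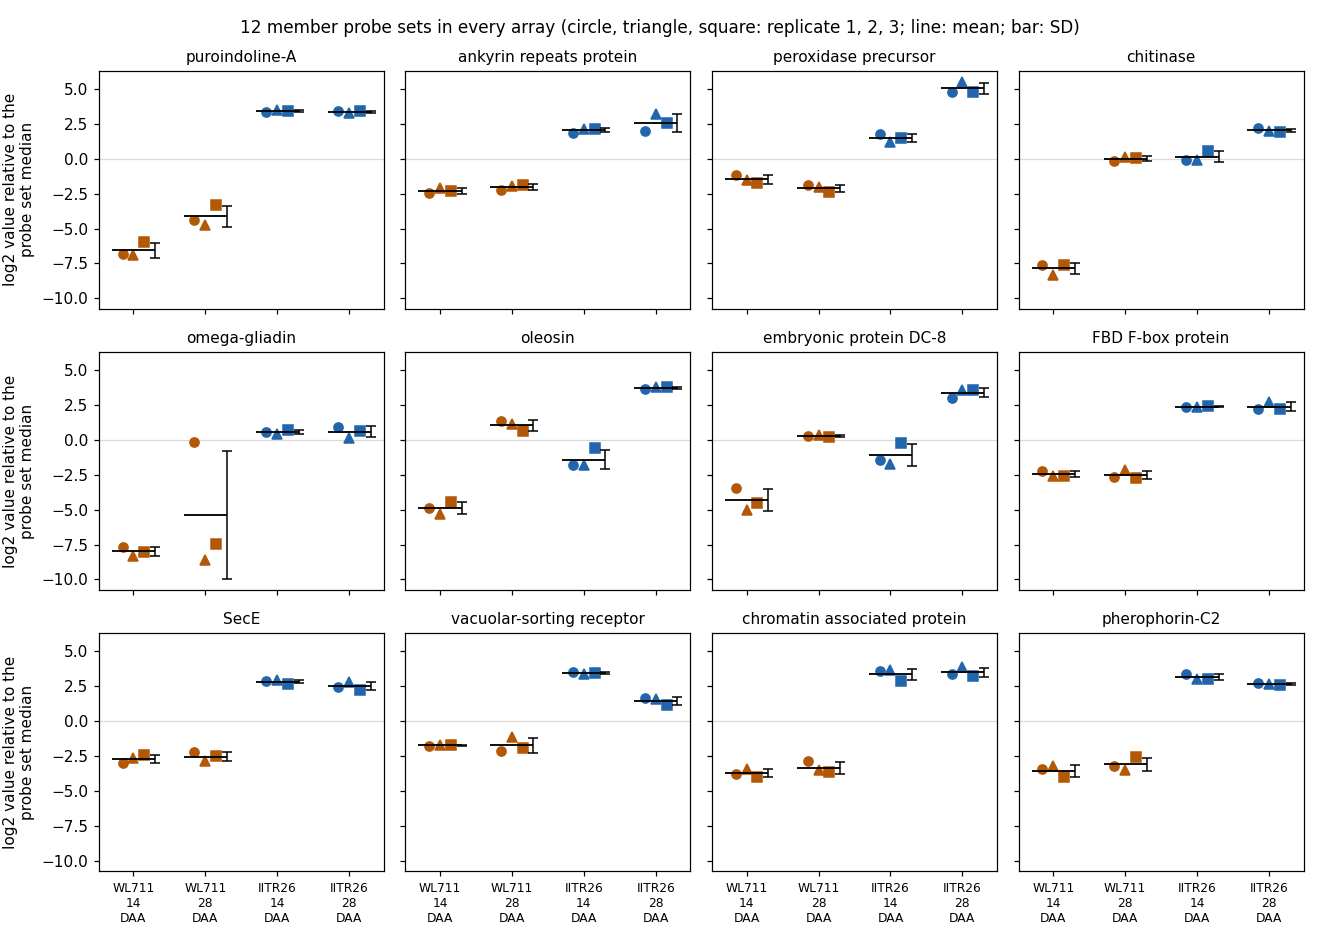
Deposited log2 values (y axis, relative to the probe set's median over 12 arrays) of 12 members in each array, for WL711 (brown) and IITR26 (blue) at 14 and 28 DAA; symbols are replicates 1 to 3, the line is the mean and the bar the SD of 3 arrays. In the omega-gliadin panel, WL711 28 DAA replicate 1 reads -0.14 while replicates 2 and 3 read -8.60 and -7.45.

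Grain reserve and maturation members included a storage protein of the starchy endosperm and proteins of the embryo and aleurone. Omega-gliadin (Ta.23896.1.S1_at), a sulphur-poor gluten protein, read 0.57, 0.42 and 0.70 in IITR26 at 14 DAA and 0.91, 0.14 and 0.68 at 28 DAA, against -7.65, -8.33 and -8.004 in WL711 at 14 DAA. At 28 DAA the WL711 arrays read -0.14, -8.60 and -7.45. Replicate 1 thus sat 91.7% of the way to IITR26, just below its lowest array, and the other WL711 arrays lay within 1 of the range of the 14 DAA arrays. The difference was 8.56 at 14 DAA and 5.97 at 28 DAA, or 8.60 at 28 DAA without replicate 1, and the WL711 mean at 28 DAA was -5.40 ± 4.59 (SD, n = 3).

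Oleosin (Ta.14236.1.S1_at), which coats oil bodies, and the embryonic protein DC-8 (Ta.6146.1.S1_at), a late embryogenesis abundant protein, rose in both genotypes. Oleosin read -1.78, -1.80 and -0.61 in IITR26 and -4.87, -5.33 and -4.45 in WL711 at 14 DAA, and 3.66, 3.79 and 3.77 and 1.39, 1.15 and 0.61 at 28 DAA. DC-8 read -1.41, -1.71 and -0.22 and -3.43, -4.99 and -4.54 at 14 DAA, and 3.01, 3.56 and 3.58 and 0.25, 0.37 and 0.22 at 28 DAA. For both, the WL711 arrays at 28 DAA had passed the IITR26 arrays of 14 DAA. Oleosin rose by 5.14 in IITR26 (95% interval 4.44 to 5.84, adjusted p = 5.47e-07) and by 5.94 in WL711 (95% interval 5.24 to 6.63, adjusted p = 2.38e-07). DC-8 rose by 4.49 (adjusted p = 8.24e-06) and 4.60 (adjusted p = 9.61e-06). The interactions were -0.80 (95% interval -1.78 to 0.19) and -0.11 (-1.37 to 1.15), neither of which was called. The senescence/dehydration associated protein (Ta.21557.1.A1_at) read 1.15 ± 0.26 and 2.13 ± 0.19 in IITR26 against -1.11 ± 0.19 and -1.17 ± 0.13 in WL711 (SD, n = 3), and was not called for a change between stages.

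In whole grains, fewer cells of a type and less RNA per cell cannot be told apart. Among 9 annotated probe sets for embryo and aleurone proteins, oleosin and DC-8 included, 5 were higher in IITR26 at 14 DAA and 5 at 28 DAA, 2 and 1 were lower, and 6 rose between stages in each genotype. The median difference over the 9 was 2.46 at 14 DAA and 2.69 at 28 DAA. Among 5 probe sets for starchy endosperm proteins, of which omega-gliadin and puroindoline-A are members, 4 were higher in IITR26 at 14 DAA and 1 at 28 DAA (3 without WL711 replicate 1), and 1 was lower at each stage. Among 10 found by key words for green pericarp, which caught the RBCL 1 pentatricopeptide repeat protein among the members, 7 were lower in IITR26 at 14 DAA and 2 at 28 DAA (1 without WL711 replicate 1), and both of the transfer cell probe sets were lower at 28 DAA. These lists come from an annotation that the study made for probe sets it had selected on these arrays, and are not independent evidence of a direction. Their part in the members' differences was not tested.

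Protein turnover was represented by 5 members, with a median difference of 4.31 at 14 DAA and of 3.55 at 28 DAA, or 4.73 at 28 DAA without WL711 replicate 1. F-box proteins pick the proteins that a ubiquitin ligase marks for degradation, and SKP1 joins them to the ligase. The FBD-associated F-box protein (TaAffx.120564.1.A1_at) read 2.37, 2.36 and 2.46 in IITR26 at 14 DAA and 2.19, 2.74 and 2.22 at 28 DAA, against -2.23, -2.58 and -2.59 and -2.64, -2.19 and -2.74 in WL711. The F-box and FBD protein (TaAffx.64850.1.A1_at) read 2.57, 2.08 and 2.16 and 2.39, 2.83 and 2.36, against -2.27, -2.33 and -2.26 and -2.40, -2.33 and -2.08. Both kept nearly the same level through grain filling in each genotype, and the 95% intervals of their changes between stages lay within 1 of 0 in both. The differences were 4.86 and 4.90 for the former, and 4.56 and 4.80 for the latter.

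The SKP1/ASK1-like protein (Ta.22794.1.S1_at) read 0.52, 0.26 and 0.42 in IITR26 at 14 DAA and 0.59, 0.90 and 0.59 at 28 DAA, against -3.97, -3.92 and -3.84 in WL711 at 14 DAA. The WL711 arrays of 28 DAA read -0.26, -4.14 and -4.17, with replicate 1 at 80.4% of the way to IITR26. The difference was 4.31 at 14 DAA, and 3.55 at 28 DAA or 4.85 without that array. The ubiquitin fusion protein (Ta.14475.1.S1_at) read 2.43 ± 0.20 and 1.38 ± 0.47 in IITR26 against -1.30 ± 0.22 and -1.43 ± 0.13 in WL711 (SD, n = 3). The ubiquitin carrier protein E2 (Ta.21055.1.S1_at), which hands ubiquitin on to the ligase, differed by 2.67 and 3.27. By limma 0 of the 5 were called for a change between stages. Over all probe sets, 1.33% were called higher and 1.59% lower in IITR26, and 0.958% and 1.34% in WL711, so nothing is read from this count. On the adjusted p of limma alone the counts were 2 in IITR26 and 0 in WL711, and at an unadjusted p under 0.05 they were 2 and 1. Over the 10 annotated probe sets for F-box proteins, SKP1 and ubiquitin, which hold these 5, 8 were higher in IITR26 at 14 DAA and 5 at 28 DAA (7 without WL711 replicate 1), and 1 was lower at each stage.

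Trafficking and organelle members had a median difference of 4.02 at 14 DAA and 3.26 at 28 DAA (3.25 without WL711 replicate 1). SecE (Ta.29726.2.A1_at) is a small subunit of the channel through which secretory and membrane proteins cross or enter a membrane. The study followed it by quantitative RT-PCR in grains of 14 DAA and reported high expression in IITR26. The primer pair of that measurement is printed here, and its place relative to the oligonucleotides of the probe set was not determined.
SecE forward primer: ggggttcgtcggcttcttcgtcaag
SecE reverse primer: ccacagatgagacaaaggacgcacac
On the arrays SecE read 2.86, 2.93 and 2.69 in IITR26 at 14 DAA and 2.45, 2.80 and 2.24 at 28 DAA, against -2.99, -2.62 and -2.43 and -2.24, -2.87 and -2.51 in WL711. The genotypes differed by 5.51 and 5.04, and the level did not move between stages beyond an interval of 1 in either genotype (-0.33, 95% interval -0.76 to 0.09 in IITR26 and 0.14, -0.29 to 0.56 in WL711).

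The vacuolar-sorting receptor (Ta.9898.1.A1_at) directs storage proteins to the vacuole. It read 3.56, 3.39 and 3.44 in IITR26 at 14 DAA and 1.64, 1.58 and 1.14 at 28 DAA, against -1.80, -1.72 and -1.70 and -2.14, -1.14 and -1.95 in WL711. It was the only member called lower at 28 than at 14 DAA, and only in IITR26, where it fell by 2.01 (95% interval -2.49 to -1.53, adjusted p = 3.1e-05). In WL711 the change was 0.00 (95% interval -0.48 to 0.48), and the interaction was -2.01 (adjusted p = 0.00176). The fall lay at the limit of 2, and was 1.96 without IITR26 14 DAA replicate 1 and 1.85 without IITR26 28 DAA replicate 3. The interaction was smaller than 2 in size in 4 of the 12 fits that left out an array, reaching -1.71 without WL711 28 DAA replicate 2.

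Peroxin Pex14 (Ta.9561.3.S1_a_at), part of the docking site for proteins entering peroxisomes, read 1.69 ± 0.03 and 1.56 ± 0.09 in IITR26 against -2.36 ± 0.14 and -1.67 ± 0.20 in WL711 (SD, n = 3). The Ras-related protein (Ta.1763.2.S1_at), a small GTPase, differed by 3.99 at 14 DAA and 3.28 at 28 DAA, or 3.78 without WL711 replicate 1, which lay 39.7% of the way to IITR26. The microtubule-associated protein (Ta.9741.1.A1_at) went from 0.22, 0.59 and 0.35 to 2.75, 3.07 and 2.91 in IITR26 and from -1.97, -1.51 and -1.82 to -0.22, -0.36 and -0.53 in WL711, so that each later group lay above the earlier one without overlap. It rose by 2.52 in IITR26 (95% interval 2.20 to 2.84, adjusted p = 3.59e-07), and the change in WL711 was 1.40 (95% interval 1.08 to 1.72, adjusted p = 3.65e-05), the latter below the log2 change of 2. The difference of 1.12 between these changes had an adjusted p of 0.00521 but also stayed below the log2 change of 2, so the interaction was not called. The oxysterol binding protein-related protein 1A, a lipid carrier, differed by 2.55 and 2.12.

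Translation and nucleic acids was the largest group, with 12 members, median differences of 3.67 at 14 DAA and 3.66 at 28 DAA (4.04 without WL711 replicate 1), and 0 called for a change between stages by limma in either genotype. Over all probe sets, 1.33% were called higher and 1.59% lower in IITR26, and 0.958% and 1.34% in WL711. With shares this low, nothing is read from 0 of 12. On the adjusted p of limma alone the counts were 2 in IITR26 and 1 in WL711, and at an unadjusted p under 0.05 they were 5 and 7. The chromatin associated protein (Ta.1112.1.S1_at) read 3.57, 3.64 and 2.89 and 3.38, 3.88 and 3.24 in IITR26 at 14 and 28 DAA, against -3.77, -3.42 and -4.01 and -2.89, -3.49 and -3.67 in WL711. Its differences of 7.10 and 6.85 gave it the largest smaller difference after puroindoline-A over all 12 arrays. Without WL711 28 DAA replicate 1 its smaller difference was 7.08, below those of omega-gliadin (8.56), Ta.883.1.S1_at (7.67) and puroindoline-A (7.40). Splicing factor Cwf18 (Ta.6001.2.S1_at) read 1.77, 1.82 and 1.73 and 2.54, 3.19 and 2.85, against -2.37, -1.73 and -2.46 and -2.64, -2.09 and -1.74. The GATA zinc finger protein (Ta.7430.1.S1_at), of a family of transcription factors, read 2.04, 1.34 and 2.04 and 3.53, 3.73 and 3.44, against -1.97, -2.11 and -1.34 and -1.86, -2.05 and -1.72. In all of these, every IITR26 array lay above every WL711 array of either stage.

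Transcription elongation factor 1 (Ta.28688.1.A1_at) read 0.21, -0.06 and 0.06 in IITR26 at 14 DAA and 1.64, 0.96 and 1.60 at 28 DAA, against -4.80, -4.79 and -5.06 and 0.77, -3.98 and -3.71 in WL711. Replicate 1 of WL711 at 28 DAA again lay near IITR26, 88% of the way, and above all IITR26 arrays of 14 DAA. The same array lay at 90.4% in the U5 snRNP helicase (Ta.6828.1.S1_at), which unwinds RNA in the spliceosome, and at 78.3% in the PWI splicing factor (Ta.22510.1.S1_at). Differences at 28 DAA with and without it were 3.71 and 5.25 for the elongation factor, 3.32 and 4.75 for the helicase, and 2.36 and 3.19 for the PWI factor. At 14 DAA they differed by 4.95, 4.43 and 4.01, and no array of that stage reached 75% toward the other genotype in any member.

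A pair of pentatricopeptide repeat (PPR) proteins, a family that binds organelle RNA, were members. Ta.14050.1.S1_at differed by 3.13 and 4.30, and the RBCL 1 protein Ta.7254.1.S1_at by 3.73 and 2.99 (3.53 without WL711 replicate 1, at 46.1%). The others were 40S ribosomal protein S5 (3.16 at 14 DAA and 3.62 at 28 DAA), peptidyl-tRNA hydrolase, which frees transfer RNA from stalled peptides (3.54 and 3.72), replication factor A, which binds single-stranded DNA (3.05 and 2.68), and nuclease PA3 (2.40 and 2.87). Annotated probe sets of these roles, members included, differed from list to list. Both PPR probe sets are members. Of 5 for splicing and small nuclear ribonucleoproteins, 3 of them members, 3 were higher in IITR26 at 14 DAA and 2 at 28 DAA (3 without WL711 replicate 1), against 2 lower at each stage. Of 6 ribosomal proteins 2 and 3 were higher (4 at 28 DAA without that array) and 2 and 1 lower, with medians of 1.204 and 2.20. Of 16 probe sets for replication factors and histones 2 were higher at 14 DAA and 1 at 28 DAA (2 without that array), against 4 and 14 lower, with medians of -0.33 and -3.47.

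Metabolism and cell wall members had median differences of 2.9996 at 14 DAA and 3.08 at 28 DAA (3.53 without WL711 replicate 1). Pherophorin-C2 (Ta.24125.1.S1_at), named after a cell wall glycoprotein of the green alga Volvox, read 3.40, 3.004 and 3.02 and 2.73, 2.65 and 2.59 in IITR26 at 14 and 28 DAA, against -3.40, -3.22 and -4.03 and -3.20, -3.51 and -2.59 in WL711. Argininosuccinate lyase (Ta.15908.1.S1_at), the last enzyme of arginine synthesis, read 2.14, 2.29 and 1.97 and 1.99, 1.86 and 1.99, against -2.76, -2.36 and -1.86 and -2.35, -2.25 and -2.15. Both were high in all IITR26 arrays and low in all WL711 arrays, by 6.69 and 5.76 for pherophorin-C2 and by 4.46 and 4.19 for the lyase.

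The 2-alkenal reductase (Ta.14574.1.S1_at), which detoxifies reactive aldehydes, moved from -0.42, -0.60 and 0.11 to 3.67, 3.90 and 4.05 in IITR26 and from -2.67, -3.01 and -3.29 to 0.27, 0.25 and -0.11 in WL711. It rose by 4.18 in IITR26 (95% interval 3.73 to 4.62, adjusted p = 1.17e-07) and by 3.12 in WL711 (95% interval 2.68 to 3.57, adjusted p = 9.42e-07), and the interaction of 1.05 was not called (adjusted p = 0.0382). The exopolysaccharide glycosylphosphotransferase (Ta.20147.1.S1_at) read 0.24, -0.05 and 0.05 and 1.43, 1.34 and 1.23 in IITR26, against -2.31, -2.59 and -2.36 and 0.56, -1.996 and -1.81 in WL711, with WL711 replicate 1 at 76.1%. It differed by 2.501 at 14 DAA and 2.42 at 28 DAA, or 3.24 without that array. The 3-isopropylmalate dehydrogenase of leucine synthesis differed by 2.94 at 14 DAA and by 2.34 at 28 DAA with the array and 3.11 without it, and the phosphorus group transferase by 3.06, 2.32 and 3.26.

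Among the 51 members without a function, differences ran from 2.06 to 7.67 at 14 DAA and from 2.08 to 6.41 at 28 DAA. TaAffx.24809.1.S1_x_at read 3.36, 4.10 and 3.52 and 3.85, 2.80 and 3.61 in IITR26 at 14 and 28 DAA, against -3.03, -3.03 and -3.03 and -3.03, -2.95 and -2.80 in WL711, where 4 of the 6 arrays held an identical value. Ta.883.1.S1_at read 0.10, -0.10 and 0.54 and 1.67, 2.09 and 1.76, against -7.66, -7.58 and -7.23 and 1.04, -7.01 and -6.95. The latter repeated the pattern of omega-gliadin, with WL711 replicate 1 at 90.9% and a difference at 28 DAA of 6.15, or 8.83 without it. Next in size of the smaller difference over all arrays came Ta.11213.1.A1_at (4.98 at 14 DAA and 4.96 at 28 DAA), Ta.11896.1.A1_s_at (5.995 and 4.83, or 6.28 at 28 DAA without WL711 replicate 1), TaAffx.91902.1.A1_at (4.47 and 4.96) and Ta.21783.1.S1_at (4.13 and 4.59).

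Between 14 and 28 DAA most members were not called for a change. In IITR26, 13 members rose (14.6% of the members, against 1.33% of all probe sets) and 1 fell (1.59% of all probe sets). In WL711, 11 members rose (12.4%, against 0.958%) and 0 were called lower by limma (1.34% of all probe sets), with 6 lower at an unadjusted p under 0.05 and 0 by the methods' t-test. On the adjusted p alone, 20 members rose and 5 fell in IITR26 (7.46% and 10.1% of all probe sets), and 15 rose and 1 fell in WL711 (5.39% and 7.71%). All probe sets include those with little signal in every array, which could not be set apart here. With quantile normalization repeated over the centred values, which makes the spread of the arrays equal, the split in IITR26 was 8 higher and 16 lower. The median change over the members was 0.50 in IITR26 and 0.63 in WL711, or 0.21 in WL711 without replicate 1 of 28 DAA, against 0.01 and 0.03 over all probe sets. Neither a change between stages nor an interaction was called in 73 members. The lack of a call does not show a constant difference. The 95% interval of the interaction lay within 1 of 0 in 16 members (31 without WL711 28 DAA replicate 1). These 16 were 18% of the members, against 74.8% of all probe sets. In 20 members the 95% interval of the change lay within 1 of 0 in both genotypes (28 without WL711 28 DAA replicate 1), among them SecE, Pex14, both FBD proteins, ribosomal protein S5, argininosuccinate lyase and the chromatin associated protein. For all probe sets that share was 74%.

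Rises in both genotypes were called for 9 members: oleosin, DC-8, 2-alkenal reductase and 6 without a function. The latter included Ta.2638.1.S1_at, which rose by 5.22 in IITR26 and 6.55 in WL711, Ta.28848.1.S1_at (4.97 and 5.13), Ta.8665.1.S1_at (4.46 and 5.41) and Ta.12787.1.S1_at (3.01 and 4.86), together with the probe sets Ta.5703.1.S1_a_at and Ta.5703.1.S1_x_at of a shared cluster. Without WL711 28 DAA replicate 1, which lay at 25.2%, 45.2%, 30.5% and 85.5% in these 4, the rises in WL711 were 6.36, 4.75, 5.14 and 3.83, the differences at 28 DAA went from 2.13, 2.12, 2.36 and 2.59 to 2.33, 2.49, 2.62 and 3.63, and all 9 kept both calls. Over the 9 the rise ranged from 3.01 to 5.22 in IITR26 and from 3.12 to 6.55 in WL711. The differences between genotypes ranged from 2.11 to 4.45 at 14 DAA and from 2.08 to 3.74 at 28 DAA. In all 9 the WL711 mean at 28 DAA exceeded the IITR26 mean at 14 DAA, though for Ta.12787.1.S1_at only through WL711 replicate 1 (8 of 9 without it), and in 7 of them every WL711 array at 28 DAA lay above every IITR26 array at 14 DAA. The 7 were the only members with that order.

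In 4 members a rise was called in IITR26 only, which were both peroxidase probe sets, the microtubule-associated protein and Ta.20509.1.S1_x_at (3.53 in IITR26 and 0.69 in WL711). A rise in WL711 only was called for chitinase and puroindoline-A. A call in only 1 genotype does not show that the genotypes differed, for which the interaction is the test. The interaction was called for 5 members. The genotype difference was larger at 28 DAA for both peroxidase probe sets (2.25% of members, against 0.729% of all probe sets) and smaller for chitinase, puroindoline-A and the vacuolar-sorting receptor (3.37%, against 0.796%). The rule requires a difference of 2 at both stages but sets no order between them. The interaction is still the gap between the differences that the rule cut. Its p-values and these shares are therefore not free of the choice, and nothing is read from the shares.

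**Figure D4:**
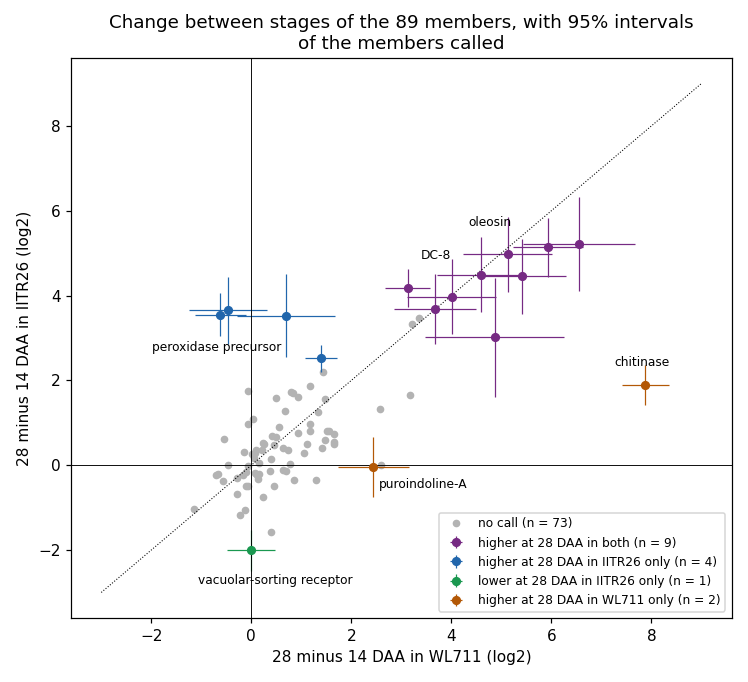
Change from 14 to 28 DAA (log2) in WL711 (x axis) and IITR26 (y axis) for the 89 members, with 95% intervals for members called in a genotype; the dotted line marks equal change. The 9 members called in both genotypes lie at 3 or more on both axes, and 73 members without a call are shown in grey.

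Other probe sets of the same transcript clusters lay outside the rule, and since not meeting it chose them, their counts are a description. Of the 78 clusters, 27 held further probe sets that were not members, 112 in all, of which 51 came from the single cluster TaAffx.143995. Of the 112, 2 (1.79%) were called higher in IITR26 at 14 DAA and 4 (3.57%) at 28 DAA, against 0.595% and 0.566% of all probe sets, and 1 was called lower at 14 DAA. No call was made at either stage for 105. Their median difference was 0.09 at 14 DAA and 0.13 at 28 DAA. Outside TaAffx.143995, the 61 others had medians of 0.18 and 0.35, with the same 2 and 4 called higher, while the 32 members of those clusters had medians of 3.14 and 3.19. In all 27 clusters every further probe set had a smaller mean difference than any member of its cluster, which the rule itself favours.

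Counts were also taken by how close the identifiers were. Only 9 of the 112 came from the same subcluster as a member, meaning the same first pair of numbers in the identifier. Of these 9, 2 were called higher at 14 DAA and 2 at 28 DAA, 8 showed no overlap of the genotypes at both stages (3.71% of all probe sets did), and the median differences were 1.16 and 1.49. Of the 103 from other subclusters, none was called higher at 14 DAA and 2 were at 28 DAA, with medians of 0.05 and 0.10. No overlap at both stages, with IITR26 above WL711, was seen in 14 of the 103. For the 103 at 14 DAA, 6 were higher and 10 lower on the adjusted p of limma alone, and 18 were higher at an unadjusted p under 0.05. At 28 DAA, 13 were higher and 5 lower on the adjusted p of limma alone. The difference between these shares was not tested.

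For members with a function, 35 further probe sets from 15 clusters had median differences of 0.19 and 0.39, and 26 lay within 1 of 0 at both stages. The puroindoline-A cluster held a pair of them, Ta.23141.2.S1_at at 0.13 and -0.43 and Ta.23141.3.S1_x_at at 0.15 and -0.27 (14 and 28 DAA), next to 9.99 and 7.51 for the member. In the SecE cluster, Ta.29726.1.A1_s_at differed by 0.30 and 0.36, next to 5.51 and 5.04. The peroxidase cluster held 4, of which Ta.23366.3.A1_at was lower in IITR26 at 14 DAA by limma with Benjamini-Hochberg (-2.12, adjusted p = 0.000296). The largest was Ta.20147.3.S1_a_at of the exopolysaccharide glycosylphosphotransferase cluster, at 1.61 and 2.57. In the Pex14 cluster, Ta.9561.1.A1_x_at differed by 1.41 and 1.17, below the log2 difference of 2 but with adjusted p = 4.53e-06 and 1.52e-05 by limma. Which homoeologue or stretch of a transcript each of these probe sets reads was not determined. Where a member was low in WL711 at both stages, less transcript and a poorer match of its oligonucleotides to the WL711 sequence cannot be told apart in these data. The changes between stages within WL711 (11 members called higher at 28 DAA, 0 lower and 78 not called) were not used to tell these apart. What lay behind the genotype difference was not tested in any member.

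**Figure D5:**
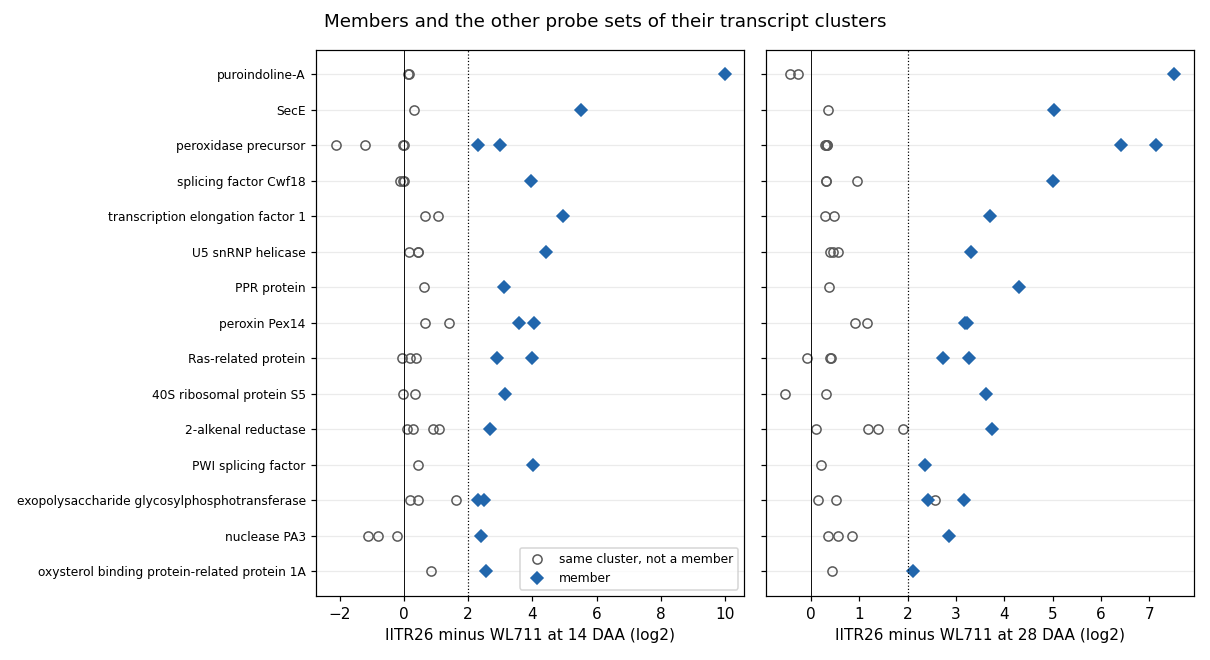
IITR26 minus WL711 (log2, x axis) at 14 DAA (left) and 28 DAA (right) for the 15 clusters that hold a member with a function and further probe sets; diamonds are members and open circles the others, and the dotted line marks a difference of 2. The circles lie near 0 in most clusters, at both stages.

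The 11 clusters with a pair of members allowed a further look at how probe sets of a transcript behaved. The pair differed by less than 1 from each other at both stages in 6 clusters, with a largest gap of 1.92 at 14 DAA and 1.62 at 28 DAA. The 2 probe sets of cluster Ta.5703 were within 0.01 at 14 DAA and 0.05 at 28 DAA, and those of the cluster of the latter ankyrin repeat protein were 1.92 and 1.55 apart. Both probe sets of a pair had met the rule on these same differences, which favours similar values, and other probe sets of a cluster were counted apart above. Probe sets of a cluster also share sequence, so this is no independent repeat of the measurement.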

How the data were processed

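Total RNA of developing grains was hybridized to 12 Affymetrix wheat genome arrays (4 groups, 3 arrays each). The authors read the arrays in GeneSpring and normalized them with RMA, and the deposited values are log2 signals in which every probe set has a median of 0 over the 12 arrays (the methods are silent on this centring). No array brightness or detection call was used here, so the number of arrays limits the precision. The 61179 probe sets without controls, of 61290, entered the fits, with no filter on low values. Group means were fitted with limma (version 3.58.1, R 4.3.3; 8 residual degrees of freedom) over all 12 arrays, tested on simulated data with known changes, and p-values were adjusted by Benjamini-Hochberg over all 61179. A call required a log2 change of at least 2 together with an adjusted p not above 0.01, the thresholds of the methods. With 3 arrays against 3, a two-sided exact permutation test of a single value cannot go below p = 0.1. The methods call the samples biological replicates; the labels do not say that each came from a separate plant, so p-values measure the spread between these samples. Functions came from the annotation of the study, held for 580 probe sets, and gene names from a platform table that gave 1273 probe sets a gene, of which 1272 matched the RefSeq gene table. Probe sets of a cluster share the first number of their identifier.

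Members, role groups and key-word lists were chosen with earlier results of these data known. Array values were printed for the 4 members of each role, and the 6 without a function, with the largest smaller difference (shortened where they repeat the pattern), for members called for a stage change or interaction, and for SecE. Alternatives changed the fit, the test, the normalization, the filter, the thresholds and the arrays used.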

Additional observations from a re-analysis of the deposited data

Results flagged for a closer look

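In 5 members the change from 14 to 28 DAA differed between the genotypes by the interaction test of limma with Benjamini-Hochberg, and they are given as IITR26 minus WL711 on the log2 scale. For chitinase (Ta.1208.1.S1_at) it was -5.98, with a rise of 7.88 in WL711 and a change of 1.90 in IITR26. For puroindoline-A (Ta.23141.1.S1_at) it was -2.47, with a rise in WL711 alone. The vacuolar-sorting receptor (Ta.9898.1.A1_at) stood at -2.01, with a fall in IITR26 alone. Both peroxidase probe sets, Ta.23366.2.S1_at and Ta.23366.2.S1_x_at, stood at 4.17 and 4.12, with a rise in IITR26 alone. The latter share a cluster and count as 1 observation. The interaction is built from the differences that chose the members, so these results are not independent of the choice. Groups of 3 arrays were not examined for single outlying arrays by a formal criterion.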

How the results depend on the processing

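Across 11 counts and their alternatives, 200 of 233 recomputed counts stayed within 1.5 times the reported count. The number of members was 357 at a log2 difference of 1, 42 at 3, 51 under the methods' filter on the coefficient of variation, and 81 to 143 when 1 array was left out, with 143 without WL711 28 DAA replicate 1. Repeating quantile normalization, which equalizes arrays whose SD ran from 0.297 to 0.685, gave 86 members of which 68 were shared, 54 called at 14 DAA, 8 higher and 16 lower at 28 than at 14 DAA in IITR26, 2 lower in WL711, 1 with a larger genotype difference at 28 DAA and 0 companions (further probe sets of the clusters) called higher at 28 DAA. The methods' t-test with adjustment called 44 members at 14 DAA and 0 at 28 DAA (61 without adjustment, against 74 by limma and 89 by limma at an adjusted p of 0.05), 4 members higher at 28 DAA in IITR26 and 2 in WL711, and 0 companions at either stage. The filter on the coefficient of variation, which removes 38 members, left 51 called at 14 DAA, 7 and 5 rising in IITR26 and WL711, and 1 and 2 companions called at 14 and 28 DAA. Leaving out probe sets ending in _x_at, _s_at or _a_at left 1 member with a larger difference at 28 DAA, and 0 and 1 companions. At a log2 change of 1, the counts were 5 lower in IITR26, 1 lower in WL711, 5 with a larger difference at 28 DAA, and 7 and 14 companions. Leaving out 1 array at a time gave 63 to 88 and 60 to 84 members called at 14 and 28 DAA, 12 to 16 rising in IITR26, 11 to 12 in WL711, 0 to 1 falling in IITR26, 0 falling in WL711, 2 to 3 and 1 to 4 with a larger and a smaller difference at 28 DAA, and 2 to 3 and 3 to 5 companions. The fall in IITR26 dropped to 0 without IITR26 14 DAA replicate 1 or IITR26 28 DAA replicate 3, and the count with a smaller difference to 1 when either was left out.

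Replicate numbers were not treated as pairs in the main fit. Same-numbered arrays deviated from their group means with correlations of -0.0651 to 0.188 (18 pairs, 2 over 0.1). Arrays of different numbers were not compared, so these values do not show whether arrays were paired by number. With the replicate number as a block, 80 and 74 members were called at 14 and 28 DAA, 13 and 11 rose, 3 had a larger and 3 a smaller difference at 28 DAA, and 2 and 4 companions were called.

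Of 15 calls for annotated members, 288 of 312 recomputed values kept their call and the other 24 kept their direction below the threshold. The causes of these changes were not tested.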
